A study of Mus musculus with 6 samples.

Results

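The genes described here encode hormones that fat cells secrete (adipokines) and the receptors that bind them: leptin (Lep), adiponectin (Adipoq), resistin (Retn), retinol binding protein (Rbp4), nicotinamide phosphoribosyltransferase or visfatin (Nampt), apelin (Apln), neuregulin 4 (Nrg4), the adiponectin receptors Adipor1 and Adipor2, and the leptin receptor (Lepr). They were chosen by name, 10 of the 18194 genes on the array, and every probe set annotated to 1 of them alone was taken, 19 of 34958. The arrays cover epididymal, subcutaneous and brown fat (labelled Epi, SubQ and BAT) of male mice, either wild type (WT) or without Kdm4b in the whole body (KO). Kdm4b encodes a demethylase of histone H3. All mice were 2 months old, lived at room temperature on chow, and had been fasted for 6 hours. The comparison addressed the obesity that follows loss of Kdm4b. Each depot and genotype had 1 array, 6 in all, and the labels state neither how many mice gave a sample nor whether 1 set of mice gave all 3 depots.

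Leptin is released by white fat cells in proportion to their fat content and acts on the hypothalamus to curb feeding, through a receptor that signals by JAK2 and STAT3. Adiponectin is made by mature fat cells, circulates as multimers and raises fatty acid oxidation and insulin sensitivity through AdipoR1 and AdipoR2. In obesity, circulating leptin is known to go up and adiponectin to go down. Resistin in mice comes mainly from white fat cells, and neuregulin 4 is known as a factor enriched in brown fat.

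Values are array signals on the deposited linear scale, on which the trimmed mean of every array is 500. A signal at or under 63.2, the floor used here, was treated as not measured, and a fold against it is given as "at least". Between 12639 and 13594 genes lay above the floor on an array. With 1 array per depot and genotype there was no test within a depot. The only error there was the disagreement between probe sets of 1 gene, pooled over all genes. On the log2 scale its SD was 0.31 for epididymal, 0.32 for subcutaneous and 0.32 for brown fat, and the spread between mice is not in it. Tests over depots used limma on all 6 arrays with depot and genotype as terms, so that for KO over WT the depots stand in for replicates. For contrasts between depots the WT and KO arrays of a depot stand in for replicates. Signals of different probe sets are not comparable as levels, so each gene is compared only with itself. The targeted gene Kdm4b had 1 probe set, with KO minus WT log2 differences of -0.27 (epididymal), -0.80 (subcutaneous) and -0.50 (brown). That difference did not pass the test (limma adjusted p = 0.522), and where the probe set lies relative to the deletion is not known here, so it may not check the labels. White adipocyte markers lay above the floor on every array, 7 of 7. They summed to between 105367 and 127479 in white and 144028 and 159263 in brown fat. In brown over white fat 4 of 7 were called higher and 0 lower (limma), beside 21.6% and 31.1% of all genes. This list thus does not tell white from brown fat. Brown adipocyte markers, 8 of 8 above the floor on every array, summed to between 14315.3 and 21718.6 in white and 179771 and 202858 in brown fat.

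The sequence just upstream of Lep, Adipoq and Retn is shown because these 3 hormone genes, all of the fat cell, gave 3 different patterns over the arrays. Each line gives the 250 bases before the annotated start in RefSeq's GRCm38.p6, read 5′ to 3′ on the gene's strand. Lep lies at chr6:29059971-29060220 (plus strand), Adipoq at chr16:23146286-23146535 (plus strand) and Retn at chr8:3655520-3655769 (plus strand). Capitals mark matches, on either strand, to TATAA (the core of the box of that name), to CCAAT, to GGGCGG (the box bound by Sp factors) or to TTNNGNAA (the pattern of C/EBP factors), and overlapping matches run together.
Lep: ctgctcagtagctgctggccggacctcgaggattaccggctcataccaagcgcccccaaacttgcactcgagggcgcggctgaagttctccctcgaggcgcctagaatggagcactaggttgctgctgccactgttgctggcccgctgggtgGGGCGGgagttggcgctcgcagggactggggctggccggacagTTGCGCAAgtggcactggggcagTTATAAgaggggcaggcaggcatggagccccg
Adipoq: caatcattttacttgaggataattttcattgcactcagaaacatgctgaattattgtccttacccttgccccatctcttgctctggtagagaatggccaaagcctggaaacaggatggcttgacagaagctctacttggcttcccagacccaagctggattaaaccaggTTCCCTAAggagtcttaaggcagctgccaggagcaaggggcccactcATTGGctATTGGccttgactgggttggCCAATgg
Retn: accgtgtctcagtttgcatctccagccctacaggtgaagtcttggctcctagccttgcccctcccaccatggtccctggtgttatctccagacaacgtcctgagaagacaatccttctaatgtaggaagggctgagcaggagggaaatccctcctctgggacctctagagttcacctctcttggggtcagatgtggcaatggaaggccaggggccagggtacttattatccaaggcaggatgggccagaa
The Lep window held GGGCGG at 98 to 93 bases before the start, TTNNGNAA at 55 to 48, and overlapping TATAA matches at 32 to 28 and 31 to 27 on opposite strands. The Adipoq window held TTNNGNAA at 81 to 74 and CCAAT at 34 to 30, 27 to 23 and 7 to 3 bases before the start. The Retn window held none of these letters. Among 32851 promoter windows of the same length, 22.8% held TATAA, 33.8% CCAAT, 32.7% GGGCGG and 36.8% TTNNGNAA, and the matches are a description of letters, not of bound sites.

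Among the secreted factors, Lep had the widest difference between genotypes. Its signal was 6063.3 in WT and 14420.7 in KO epididymal fat, 3857.5 and 9177.6 in subcutaneous fat, and 210.7 and 404.1 in brown fat. The KO array was the higher one in 3 of 3 depots, and the brown arrays stayed far below every white array. Counted from the largest KO increase, Lep was gene 46 of 13225 in epididymal, 124 of 13857 in subcutaneous and 189 of 13779 in brown fat. Over the depots the log2 difference averaged 1.15 ± 0.18 (SD, n = 3 depots), with a limma SE of 0.13. Its limma p of 0.000267 was the 7th smallest of 13233 genes, and the adjusted p was 0.439, so the call was not made. In that comparison 0 members and 0 of 13233 genes (0%) passed, while 1102 genes (8.33%) had an unadjusted limma p under 0.05. At least 1.5-fold higher in all 3 depots were 28 of 12157 genes (0.23%), Lep among them. In bulk tissue, fewer cells of a type and less RNA per cell cannot be told apart.

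**Figure D1:**
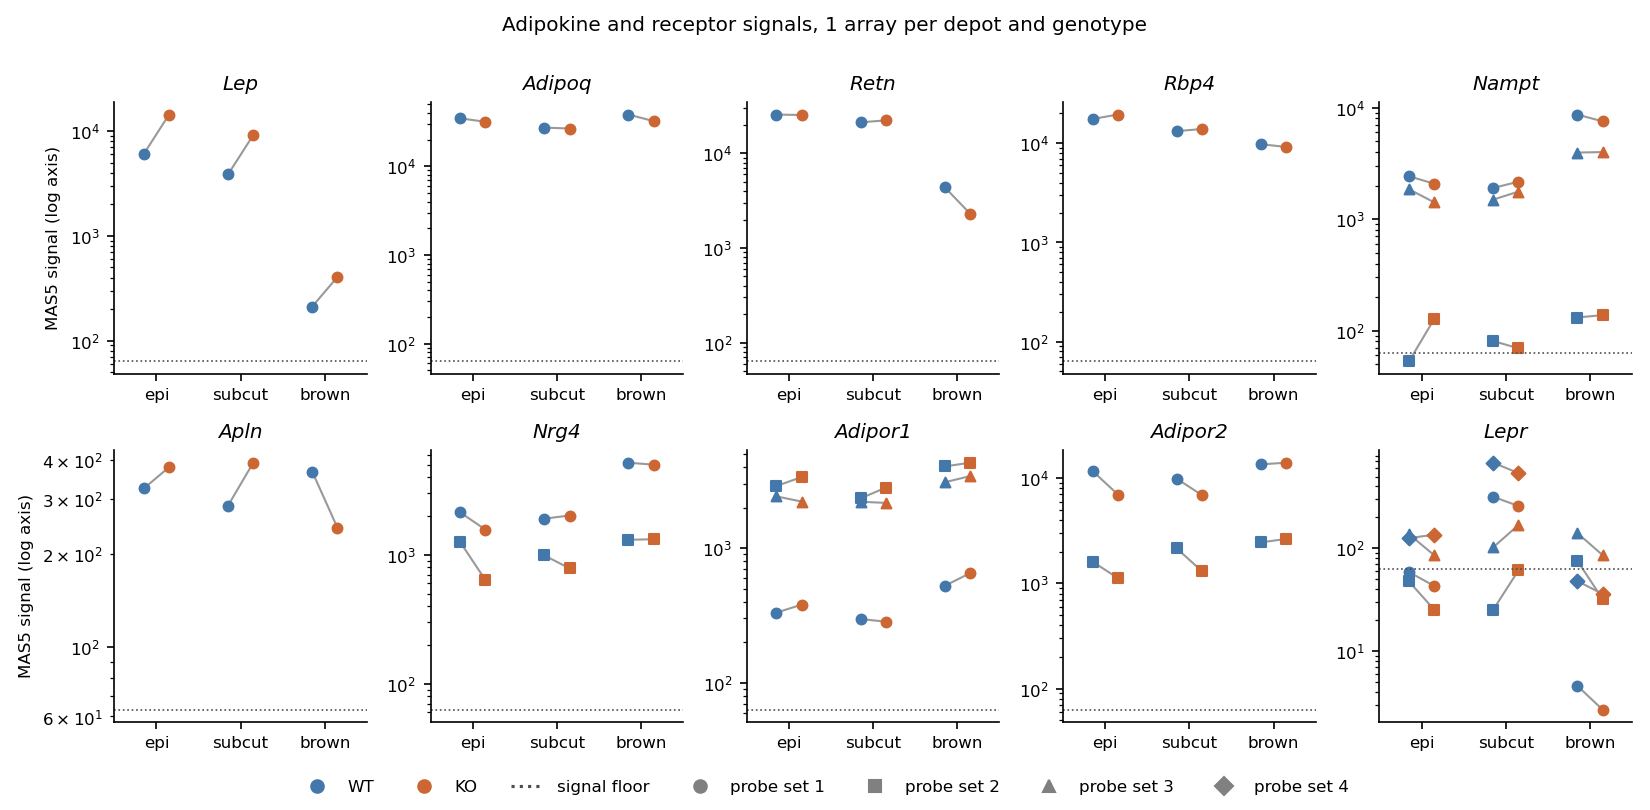
Array signal (log axis, deposited linear scale) of the 10 genes in epididymal, subcutaneous and brown fat, 1 point per probe set and array (WT joined to KO, symbols for probe sets, each gene on its own axis), with the floor of 63.2 as a dotted line. The KO point of Lep lies above the WT point in 3 of 3 depots, while the points of Adipoq lie between 26703.7 and 38402.4 on all 6 arrays.

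Adipoq was nearly level. Its signal was 34804.9 in WT and 31812.9 in KO epididymal fat, 27392.1 and 26703.7 in subcutaneous fat, and 38402.4 and 32348.6 in brown fat. On the deposited scale KO was the lower array in 3 of 3 depots, by 0.13, 0.04 and 0.25 on the log2 scale. Each was less than the SD between probe sets. That count depended on the scaling, with differences of 0, 0.05 and -0.20 under quantile normalization and -0.13, 0.17 and -0.27 under median centring. The limma difference was -0.14 (SE 0.12, adjusted p = 0.742). Both genes are products of fat cells, and set against Adipoq the KO minus WT difference of Lep was 1.38 (epididymal), 1.29 (subcutaneous) and 1.19 (brown), a mean of 1.28 ± 0.10 (SD, n = 3 depots). The summed signal of the 7 white adipocyte markers, Adipoq among them, differed by -0.16, -0.02 and -0.15. KO was higher for 0, 3 and 2 of the 7 in epididymal, subcutaneous and brown fat. The part of fat cell content in the Lep value was not tested.

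Retn was level in white fat and lower in KO brown fat. Its signal was 25767.1 in WT and 25474.3 in KO epididymal fat, 21322.3 and 22354.5 in subcutaneous fat, and 4388.1 and 2314.2 in brown fat. The brown KO array was 1.90-fold lower, gene 429 from the lowest of 13779, whereas the white log2 differences were -0.02 and 0.07. As a test of that contrast between depots, the KO effect in brown minus that in white fat was -0.95 (SE 0.24, limma adjusted p = 0.540), which did not pass over all genes. Apln, the ligand of the apelin receptor on blood vessels, had signals of 323.6 in WT and 378.8 in KO epididymal fat, 284.9 and 391.5 in subcutaneous fat, and 366.8 and 242.2 in brown fat. It was thus higher in both white KO arrays, by 0.23 and 0.46, and lower in the brown one by 0.60, with a difference of -0.94 (SE 0.26, limma adjusted p = 0.547) that did not pass either. For this contrast 0 of 13233 genes (0%) passed and 1079 (8.15%) had an unadjusted limma p under 0.05. Skeletal muscle markers also differed between the brown arrays. Their summed signal over 10 genes was 19100.5 in WT and 763.6 in KO, with 5 of 10 (Myh1, Myh2, Myh4, Tnni2 and Tnnt3) at or under the floor in KO, and their part in the brown values of Retn and Apln was not tested. Endothelial markers, 6 of 6 above the floor on every array, summed to 5497.4 in WT and 5817.6 in KO brown fat. Of these, 2 were higher and 4 lower in KO, with a median of -0.07 on the log2 scale, and their part in the Apln value was not tested.

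Rbp4, the plasma carrier of retinol, differed little between genotypes. Its signal was 17616.4 in WT and 19515.7 in KO epididymal fat, 13288.4 and 13940.0 in subcutaneous fat, and 9790.1 and 9196.3 in brown fat. The log2 differences were 0.15, 0.07 and -0.09, all within the SD between probe sets. Nampt, the rate-limiting enzyme of NAD salvage that also occurs outside cells, had 3 probe sets. The brightest (1417190_at) gave 2425.7 in WT and 2077.0 in KO epididymal fat, 1902.5 and 2165.1 in subcutaneous fat, and 8663.5 and 7531.2 in brown fat, with log2 differences of -0.22, 0.19 and -0.20. Probe set 1455320_at gave -0.39, 0.24 and 0.01. The dim 1448607_at went the other way in epididymal fat, at least 2.01-fold higher, from 53.0 under the floor to 127.1, so the Nampt probe sets disagree there.

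Nrg4, a ligand of the receptors ErbB3 and ErbB4, had 2 probe sets that agreed in direction in white epididymal fat. The brighter (1421681_at) gave 2136.6 in WT and 1571.5 in KO epididymal fat, 1909.0 and 2020.2 in subcutaneous fat, and 5188.7 and 5006.2 in brown fat. The other (1457123_at) gave 1259.7 and 639.5, 991.6 and 786.2, and 1309.3 and 1322.8 in the same order. KO epididymal fat was thus lower by 0.44 and 0.98 on the log2 scale, while the probe sets differed in sign in subcutaneous fat (0.08 and -0.33) and gave -0.05 and 0.01 in brown fat. Brown adipocyte markers were also lower in KO epididymal fat, with a summed signal over 8 genes of 21718.6 in WT and 15203.8 in KO, and their part in the Nrg4 value was not tested. Over the depots neither passed, the second at -0.43 (SE 0.22, limma adjusted p = 0.638 over 23511 probe sets).

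Among the receptors, Adipor2 was lower in both white depots of KO mice. AdipoR2 is the receptor that acts largely through the nuclear receptor PPARα, and AdipoR1 largely through AMP-activated kinase. The Adipor2 probe set 1434329_s_at gave 11680.6 in WT and 6994.8 in KO epididymal fat, 9880.8 and 6888.1 in subcutaneous fat, and 13535.5 and 14040.3 in brown fat. Probe set 1437864_at gave 1606.4 and 1121.3, 2147.1 and 1301.2, and 2451.9 and 2649.5. Each white KO array lay below both white WT arrays in both probe sets, and the brown pair was nearly level. The first was 1.67-fold and 1.43-fold lower in epididymal and subcutaneous fat, the second 1.43-fold and 1.65-fold lower, and in brown fat they were higher by 0.05 and 0.11 on the log2 scale. Over the depots the limma difference was -0.40 (SE 0.18, limma adjusted p = 0.633). The KO effect in brown minus that in white fat was 0.68 (SE 0.26, limma adjusted p = 0.625), so neither the difference over depots nor that between fat types passed. Brown adipocyte markers were lower in KO for 7 of 8 genes in epididymal, 6 of 8 in subcutaneous and 8 of 8 in brown fat, with their summed signal differing by -0.51, -0.10 and -0.17 on the log2 scale. The muscle marker sum was 5482.2 in WT and 2238.9 in KO epididymal fat, and 57166.3 and 67518.0 in subcutaneous fat. The part of these cells in the Adipor2 values was not tested. An s_at probe set can pick up related transcripts, and its part was not tested.

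Adipor1 was close to level. Its probe set 1439017_x_at gave 2887.7 in WT and 3365.6 in KO epididymal fat, 2336.0 and 2810.9 in subcutaneous fat, and 4035.5 and 4303.1 in brown fat, higher in 3 of 3 depots by 0.22, 0.27 and 0.09 on the log2 scale. Probe set 1451311_a_at gave -0.13, -0.03 and 0.15, and 1424312_at 0.20, -0.07 and 0.31. The 3 probe sets agreed in sign only in brown fat, and an x_at probe set can cross-hybridise.

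Lepr was bright in subcutaneous fat only. Probe set 1456156_at gave 125.8 in WT and 135.8 in KO epididymal fat, 681.4 and 540.5 in subcutaneous fat, and 48.1 and 36.0, both under the floor, in brown fat. Probe set 1425644_at was above the floor only in subcutaneous fat, at 317.8 in WT and 258.4 in KO. Both were lower in the subcutaneous KO array, by 0.33 and 0.30, about the SD between probe sets. A dim probe set, 1425875_a_at, gave 137.4 and 85.7, 102.2 and 168.4, and 141.0 and 86.1, without that depot pattern, and 1425873_a_at was above the floor on 1 array, WT brown fat, at 76.1. The sources used here do not say which receptor isoform each probe set detects.

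**Figure D2:**
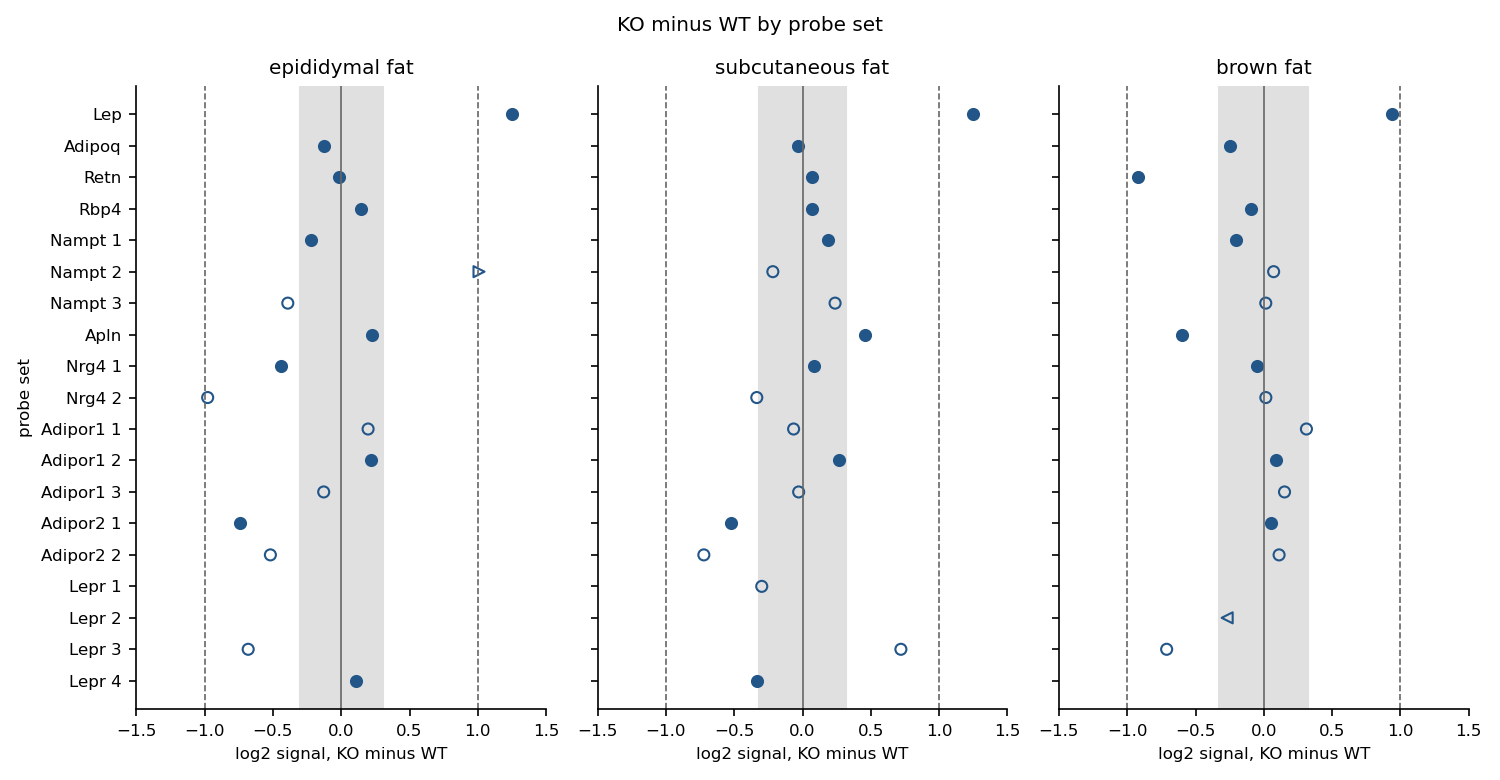
KO minus WT difference (log2 signal) of each probe set of the 10 genes, 1 panel per depot, probe sets of a gene numbered in order of their identifiers. Grey bands mark the SD between probe sets of 1 gene (0.31, 0.32 and 0.32), dashed lines a 2-fold difference, filled points the probe set that stands for the gene, and triangles bounds. Lep is the right-most gene in every depot, and both Adipor2 probe sets lie left of 0 in the white depots and right of 0 in brown fat.

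Counted by gene, with the brightest probe set standing for each, KO was higher for 5 and lower for 5 members in epididymal fat, 7 and 3 in subcutaneous fat, and 3 and 6 of 9 in brown fat. Of all measured genes 46.7%, 54.7% and 46.4% were higher. The median log2 difference of the members was 0.05, 0.08 and -0.09, beside -0.02, 0.04 and -0.03 over all measured genes. At least 2-fold apart was 1 member (Lep) in epididymal and 1 (Lep) in subcutaneous fat and 0 in brown fat, against 2.28%, 2.92% and 3.53% of all genes. At 1.5-fold, 10.9%, 12.4% and 13.7% of all genes lay apart, and 2 members (Lep and Adipor2), 1 (Lep) and 3 (Lep, Retn and Apln) did so. On the deposited scale, Lep and Adipor1 were higher and Adipoq was lower in 3 of 3 depots, where 33.4% of 12157 genes had 1 sign throughout. The sign of Adipoq in subcutaneous fat turned with other scalings.

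**Figure D3:**
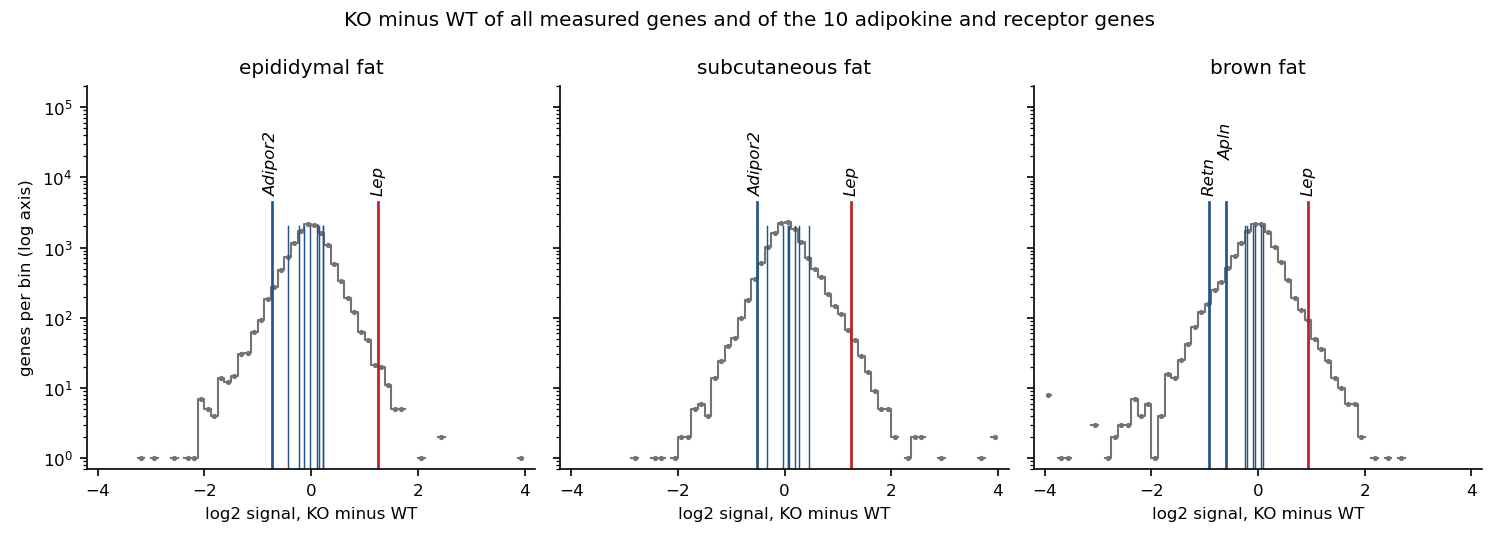
Number of measured genes (log axis) by KO minus WT difference (log2 signal), 1 panel per depot, with the members as vertical lines and more extreme genes counted in the outermost bins. Lep sits in the right-hand tail at 1.25, 1.25 and 0.94, and Retn at -0.92 is the left-most member in brown fat.

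By the brightest probe set, Lep, Retn, Lepr, Rbp4, Nampt and Nrg4 differed far more between brown and white fat than between genotypes (limma estimates). The gap was smaller for Adipor1 (log2 0.56 against 0.19), Adipor2 (0.67 against -0.40) and Adipoq (0.23 against -0.14). Apln, at -0.20, lay within the range of its KO minus WT differences by depot (0.23, 0.46 and -0.60). In brown fat, 21.6% of all genes were called higher and 31.1% lower than in white fat (limma adjusted p under 0.05), and 4 of 10 members rose and 4 fell. Lep fell 25.6-fold (log2 -4.68, SE 0.14, limma adjusted p = 0.000418), the 7th smallest p of all genes. Retn fell 7.42-fold (log2 -2.89, SE 0.24, limma adjusted p = 0.000802). Lepr fell at least 4.46-fold, with both brown arrays at the floor (limma adjusted p = 0.000555). The white side of that value is a mean over depots in which subcutaneous fat was far brighter than epididymal fat, and the dim Lepr probe set 1425875_a_at did not show it (log2 -0.11, SE 0.33, limma adjusted p = 0.795 over 23511 probe sets). Rbp4 fell 1.67-fold (log2 -0.74, SE 0.13, limma adjusted p = 0.00674). Nampt rose 3.78-fold (log2 1.92, SE 0.15, limma adjusted p = 0.000681) and Nrg4 2.69-fold (log2 1.43, SE 0.16, limma adjusted p = 0.00171), each by its brightest probe set. Fitted over 23511 probe sets, Nampt 1455320_at also rose, 2.45-fold (limma adjusted p = 0.00338). Nampt 1448607_at was 1.64-fold higher (limma adjusted p = 0.0822) and Nrg4 1457123_at 1.48-fold higher (limma adjusted p = 0.0957), and neither passed. The adiponectin receptors rose less, Adipor1 1.47-fold (limma adjusted p = 0.0151) and Adipor2 1.60-fold (limma adjusted p = 0.0369). The Adipor2 call did not hold with quantile normalization, at 0.22 on the log2 scale (limma adjusted p = 0.429), nor without the epididymal, subcutaneous or brown KO array (limma adjusted p = 0.102, 0.0673 and 0.210). The Adipor1 call was lost without the epididymal WT, epididymal KO, subcutaneous WT or brown WT array (limma adjusted p = 0.0575, 0.0534, 0.05001 and 0.0933), and that of Rbp4 with median centring (limma adjusted p = 0.0582). Adipoq (log2 0.23, SE 0.12, limma adjusted p = 0.173) and Apln (log2 -0.20, SE 0.24, limma adjusted p = 0.526) did not pass, and the direction of both turned with the scaling. Under quantile normalization they were at -0.41 and 0.08, where Adipoq passed in the opposite direction (limma adjusted p = 0.0418).

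**Figure D4:**
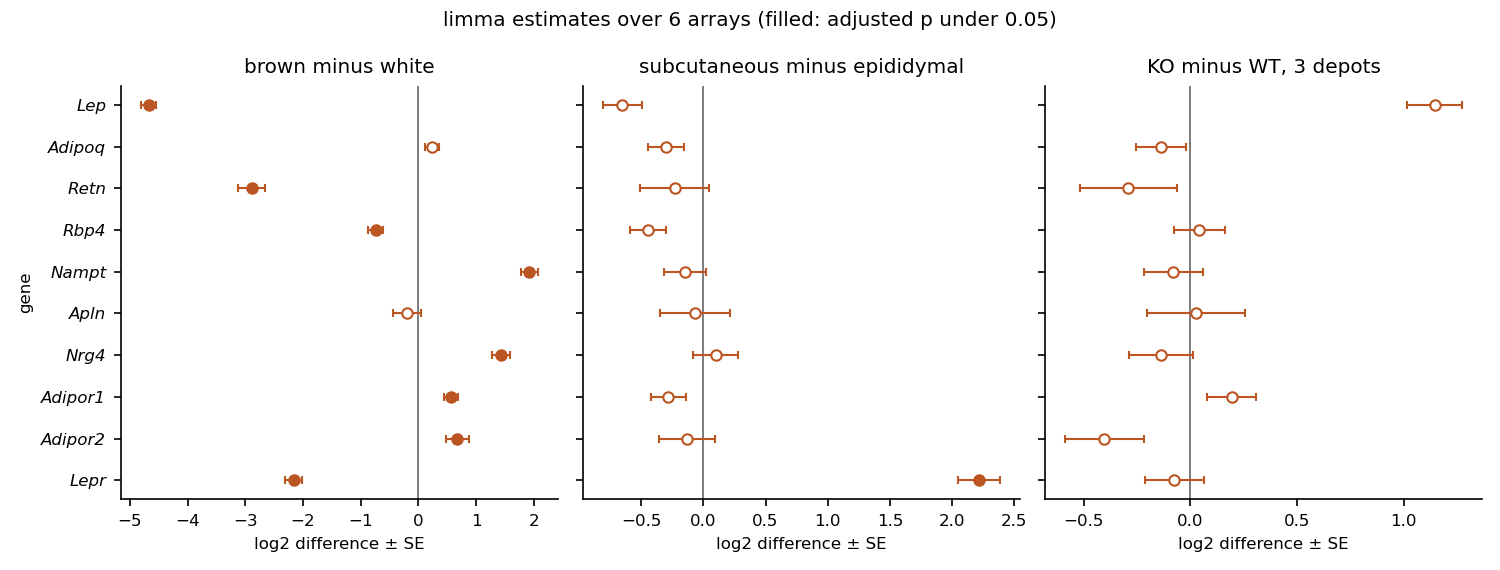
limma differences (log2 signal, points with their SE as bars, filled where the adjusted p is under 0.05) of the 10 genes for brown over white fat, subcutaneous over epididymal fat, and KO over WT over 3 depots. Lep is highest for KO over WT at 1.15 and lowest for brown over white fat at -4.68, and Lepr at 2.21 is the 1 gene past the threshold for subcutaneous over epididymal fat.

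Within white fat, Lepr rose 4.64-fold in subcutaneous over epididymal fat (log2 2.21, SE 0.17, limma adjusted p = 0.00587), the 1 member called, where 3.88% of all genes rose and 1.16% fell. Without the epididymal WT array the adjusted limma p was 0.0729, without the epididymal KO array 0.0577, and with a floor at the 20th percentile 0.0569. Probe set 1425875_a_at did not show the difference (log2 0.27, limma adjusted p = 0.727 over 23511 probe sets). Mesothelial, muscle and lymphocyte markers also differed between these depots. The 6 mesothelial genes summed to 8900.2 and 8148.0 in epididymal but 412.6 and 282.3 in subcutaneous fat, and 6 of 6 fell in subcutaneous fat (limma). The muscle sums given above differed the other way, with 0 of 10 genes called. The T cell markers, 4 genes, summed to 409.1 and 304.1 in epididymal but 4449.8 and 3569.4 in subcutaneous fat, where 3 of 4 rose (limma). The B cell markers, 5 genes, summed to 15162.7 and 16488.9 in epididymal and 27670.2 and 31802.5 in subcutaneous fat, where 3 of 5 rose (limma). Ighm carried most of the epididymal sum (12786.0 and 15521.3) and differed 1.08-fold between the depots. Cd79a, Cd79b and Ms4a1, the genes that rose, were 7.49-fold, 11.3-fold and 15.2-fold higher, and Jchain was 7.32-fold higher without a call. The part of all these cells in the Lepr value was not tested. Lep was 1.57-fold lower in subcutaneous fat (log2 -0.65, SE 0.16, limma adjusted p = 0.0953) and Rbp4 lower by 0.45 (limma adjusted p = 0.172), and neither passed. The other 7 members had differences between -0.30 and 0.10 and adjusted limma p-values from 0.307 to 0.910.

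Ordered by mean log2 signal, Retn and Rbp4 ran epididymal, subcutaneous, brown from high to low, with no overlap between the 2-array ranges of neighbouring depots. Lep had the same order, but its white depots overlapped. Lepr ran subcutaneous, epididymal, brown and Adipor1 brown, epididymal, subcutaneous, again with no overlap. Nampt, Nrg4 and Adipor2 were highest in brown fat, and their white depots overlapped. For Adipoq brown and epididymal fat overlapped, and for Apln all neighbours did. Brown and white arrays did not overlap for 8 of 10 members, where that held for 60% of all genes. Subcutaneous and epididymal arrays did not overlap for 5 (Adipoq, Retn, Rbp4, Adipor1 and Lepr), where 52.5% of all genes did not.

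The genes with the most similar pattern to Lep over the 6 arrays, by root mean square distance of centred log2 signals among 10506 genes, were Lhfpl2 (0.43), Lbp (0.47), Synpo2 (0.48), Sncg (0.52) and Ighm (0.53). In its 3 KO minus WT differences the nearest were Fdps (0.11), Mtarc1 (0.18), Sqle (0.21), Prr32 (0.22) and Scyl2 (0.22). Fdps and Sqle encode enzymes of sterol synthesis. For Retn the nearest were Ogn (0.12), Klhl13 (0.18), Vegfd (0.19), Cnr1 (0.19) and Slc2a3 (0.20). For Nrg4 they were Urb1 (0.075), Oxa1l (0.078), Trap1 (0.091), Atat1 (0.094) and Cdip1 (0.095). Adipoq, nearly flat, lay within 0.062 of Btbd9, Rab34, Bag3, Zfp619 and Ccnh. These distances are descriptions over 6 arrays of 1 table.

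Other secreted factors of fat did not move as a group with genotype. Of 16, 17 and 15 measured in epididymal, subcutaneous and brown fat, 9, 10 and 6 were higher in KO, with medians of 0.10, 0.02 and -0.05 on the log2 scale, and 0 of 16 tested passed (limma). Sfrp5, which encodes a secreted Wnt inhibitor, was 2.91-fold higher in epididymal fat (1131.0 to 3295.2) and 2.56-fold in subcutaneous fat (616.2 to 1575.4), but lower in brown fat (177.0 to 92.4). Saa3, an acute-phase gene, was higher in 3 of 3 depots, by 0.52, 1.20 and 0.63. Of the 4 neutrophil markers, S100a8 carried most of the summed signal in white fat and was 712.4 in WT and 1853.9 in KO epididymal fat, 576.5 and 1450.9 in subcutaneous fat, and 175.3 and 122.8 in brown fat. Mpo was 75.0 in WT and 66.5 in KO epididymal fat, and 53.6, under the floor, and 104.9 in subcutaneous fat. In brown fat Mpo was 117.5 and 140.7. S100a9 was 181.4 and 264.3 in subcutaneous fat and lay under the floor in epididymal and brown fat, and Elane did so on 5 of 6 arrays. Of 3, 3 and 2 neutrophil markers measured in epididymal, subcutaneous and brown fat, 2, 3 and 1 were higher in KO. Their part in the Saa3 value was not tested. Agt, which encodes angiotensinogen, was lower by 0.74 in epididymal and 0.78 in subcutaneous fat. In brown fat it was dim and at least 1.25-fold lower, from 78.8 to 6.9 under the floor. In brown against white fat 12 of the 16 fell and 1 rose, beside the 31.1% and 21.6% of all genes. Of the C1q and TNF related proteins, relatives of adiponectin, 4, 4 and 1 of 7, 7 and 5 measured were higher in KO. C1qtnf9 was higher by 0.69 in both white depots and 0.22 in brown fat, and 0 of 7 passed (limma).

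The remaining lists cover what lies above and below the hormones. Of 10 receptors and binding partners of adipokines, 5, 5 and 3 were higher in KO in epididymal, subcutaneous and brown fat, and 0 passed (limma). The apelin receptor gene Aplnr had signals of 2813.6 in WT and 4085.4 in KO epididymal fat, 2731.8 and 3475.4 in subcutaneous fat, and 2463.6 and 1716.0 in brown fat, the same directions as its ligand gene Apln. It was picked out after its values were seen. Of 13 leptin signalling genes, 9, 9 and 7 were lower in KO, with medians of -0.15, -0.12 and -0.08, and 0 passed (limma). Irs2, an insulin receptor substrate, was lower in 3 of 3 depots by 0.68, 0.65 and 0.72, with a limma difference of -0.68 (SE 0.11, adjusted p = 0.460). Cish, a feedback inhibitor induced by STAT5, was lower by 0.82, 0.51 and 1.17 (limma adjusted p = 0.460), and it rose 4.16-fold in brown over white fat (limma adjusted p = 0.000802).

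Of 12 genes of adiponectin assembly and signalling, 9, 6 and 7 were lower in KO, with medians of -0.11, -0.02 and -0.07, and 0 passed (limma). Ppargc1a, a coactivator of mitochondrial genes, was lower by 0.77 in epididymal fat, 0.13 in subcutaneous and 0.10 in brown fat, and Camkk2, an upstream kinase of AMP-activated kinase, differed by -0.13, 0.90 and 0.78. Of 11 regulators of adipokine transcription, 9, 10 and 8 were lower, with medians of -0.10, -0.14 and -0.14 beside -0.02, 0.04 and -0.03 over all genes, and 0 passed (limma). Srebf1 was lower by 0.54 in epididymal and 0.35 in subcutaneous fat and level in brown fat, and Foxo1 was lower by 0.19, 0.06 and 0.48. Cebpa, a master transcription factor of fat cells, was lower by 0.17, 0.22 and 0.33. Hif1a, the hypoxia-inducible factor, was higher by 0.32, 0.27 and 0.12. The values of Cebpa and Hif1a lay about or under the SD between probe sets. Of 11 genes of NAD salvage, the pathway of Nampt, 9, 8 and 5 were lower and 0 passed (limma). Their medians were -0.30, -0.08 and 0.03, beside -0.02, 0.04 and -0.03 over all genes. Nnmt, which methylates nicotinamide, differed in brown fat, 4.56-fold lower in KO (6069.4 to 1332.0), and by 0.24 and -0.08 in the white depots. The muscle markers differed between the same brown arrays, and their part in the Nnmt value was not tested. The NAD synthesis gene Nmnat3 was lower by 0.74 and 0.63 in epididymal and subcutaneous fat and higher by 0.35 in brown fat.

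Of 4 genes whose expression is known to follow fat mass, Mest was 2.39-fold higher in KO epididymal fat (2641.8 to 6313.6) and 4.14-fold in subcutaneous fat (668.3 to 2769.2), and differed less in brown fat (183.8 to 233.0). Its limma difference was 1.22 (SE 0.33, adjusted p = 0.522). With Sfrp5, a further gene of the list, and Trp53inp2, higher by 0.60 and 0.55 in white fat, 3 of 4 were higher in epididymal and 4 of 4 in subcutaneous fat, and 0 passed (limma). In brown fat 2 were higher and 2 lower, while Lep was higher in 3 of 3 depots.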

How the data were processed

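Total RNA labelled with biotin was measured on 6 Affymetrix arrays, 1 per depot and genotype, grouped by their titles. The intensity values deposited by the authors, 1 linear value per probe set and array, were made with MAS5 in Affymetrix Expression Console, per the submitters' processing notes. Their versions are not stated there. MAS5 treats each array alone, so dim probe sets are noisy, and its scaling to a 2%-trimmed mean of 500 hides any change in total RNA. Precision is limited by how few arrays there are.

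Of 45101 probe sets (64 controls), 34958 had 1 gene symbol, 932 several and 9211 none. Of these, 34754 were looked up in RefSeq (GRCm38.p6) and 0 symbols changed. Promoters were found for 10 of 10 members. A floor was set at the median, over arrays, of the 40th percentile without controls, lower intensities were raised to it, and log2 was taken. A gene was represented by its probe set of highest mean log2 intensity, and counted as measured in a depot if 1 of the 2 arrays exceeded the floor.

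limma 3.58.1 (R 4.3.3) was fitted to the 13233 genes that exceeded the floor on 3 or more arrays, and p-values were adjusted over all of them by Benjamini-Hochberg and a threshold of 0.05. With depot and genotype as terms, its error for a gene comes from the scatter of the KO minus WT difference from depot to depot. Contrasts between depots are set against that same error, as the WT and KO arrays stand in for replicates there. In neither case do the p-values measure the spread between mice. The fit of KO over WT over the depots was tested on simulated data with independent noise on each array. Such data cannot show whether depots may stand in for mice. The KO effect in brown minus white fat, which leaves 1 residual degree of freedom beside the spread shared over genes, and the fit of single probe sets were added after seeing the data. The members and gene lists were chosen with earlier results of these data known. Named were all members with their probe sets, up to 4 genes per list with the largest absolute value of the mean KO difference, the 5 nearest patterns to Lep, Adipoq, Retn and Nrg4, and Kdm4b. Alternatives were other scalings, floors, probe set rules, fold thresholds and limma settings, and leaving out an array or depot. Other steps used Python 3.11.15, pandas 2.3.3, numpy 2.4.6, matplotlib 3.10.9 and scipy 1.17.1.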

Additional observations from a re-analysis of the deposited data

Results flagged for a closer look

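Apln had opposite KO minus WT differences between depots (log2 0.46 for subcutaneous, -0.60 for brown fat), each larger than the SD between probe sets of 1 gene. The KO effect in brown minus that in white fat was -0.94 (limma adjusted p = 0.547), which did not pass. The dim Lepr probe set 1425875_a_at was lower by 0.68 in KO epididymal fat (-0.68), higher by 0.72 in subcutaneous fat and lower by 0.71 in brown fat (-0.71), with signals between 85.7 and 168.4. Its effect in brown minus that in white fat was -0.73 (SE 0.63, limma adjusted p = 0.802 over 23511 probe sets), and the difference between the white depots was not tested. The brighter Lepr probe set differed by 0.11 in epididymal and -0.33 in subcutaneous fat.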

How the results depend on the processing

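The KO over WT difference of Lep kept its sign under every alternative run. It ranged from 1.25 to 1.43 in epididymal, 1.25 to 1.46 in subcutaneous and 0.91 to 1.0 in brown fat, and over the depots from 1.09 to 1.27, with adjusted limma p from 0.0150 to 0.873. With an intensity trend in the variance, 1 member was called higher (Lep, log2 1.15, limma adjusted p = 0.0150). At a 1.5-fold threshold 2 members in epididymal and 3 in brown fat were apart, and at 3-fold 0 in epididymal and 0 in subcutaneous fat. Brown over white, Lep (-4.83 to -4.39), Retn (-3.37 to -2.42), Nampt (1.31 to 2.20) and Nrg4 (0.99 to 1.71) passed under every alternative run at the gene level, and so did Lepr under those in which it was tested. At the floor of the 60th percentile Lepr did not enter the fit. Single probe sets of Nampt, Nrg4 and Lepr that did not pass are given with the results. Leaving out 1 array, 2 to 3 members were called higher there, with 2 when the epididymal KO array was left out, and 0 to 1 for subcutaneous over epididymal fat. That last count was 0 with the floor at the 20th percentile, without the filter, and without either epididymal array. It was 0 with the floor at the 60th percentile too, where Lepr was not tested. With the 60th percentile 1 member was called lower there (Lep, log2 -0.65, limma adjusted p = 0.0406), and with the trend 2 (Lep at -0.65 with limma adjusted p = 0.0126, and Rbp4).

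Some signs turned with the processing, not all of them on small differences, and the cause was not tested. KO over WT, Nampt was at 0.054 with the mean of probe sets and Adipor1 at -0.00166 without probe sets that can cross-hybridise. Within subcutaneous fat, Adipoq was at 0.05 with quantile normalization and 0.17 with median centring. Leaving out 1 depot gave -0.011 to 0.11 for Rbp4, -0.19 to 0.34 for Apln, -0.25 to 0.01 for Nrg4, -0.17 to 0.055 for Lepr and -0.47 to 0.026 for Retn. Brown over white, quantile normalization put Adipoq at -0.41 and Apln at 0.077, median centring put Apln at 0.083, and leaving out 1 array gave Apln -0.67 to 0.27. The median of all genes was at -0.11, -0.01 and 0.15 under the deposited, quantile and median-centred scalings, and for KO over WT in subcutaneous fat at 0.04, 0.02 and 0.23. Subcutaneous over epididymal, Apln was at 0.00199 with median centring, and Adipor2 at 0.092 with the mean of probe sets and 0.32 without cross-hybridising ones. Leaving out 1 array gave -0.39 to 0.25 for Apln, -0.38 to 0.12 for Adipor2, -0.13 to 0.33 for Nrg4, -0.50 to 0.038 for Retn and -0.35 to 0.055 for Nampt. The KO effect in brown minus white fat of Lepr was -0.31 with the 20th percentile, -0.18 with the mean of probe sets and -0.19 without a floor. That of Adipor1 was 0.11 with the mean and 0.23 without cross-hybridising probe sets. That of Retn passed with the trend (limma adjusted p = 0.0489). KO and WT arrays of a depot are already paired by the depot term of the fit, and the labels give no replicate numbers for a further block.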
